A study of Rattus norvegicus with 89 samples.

Results

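Endothelial cells line the glomerular and peritubular capillaries and the larger vessels of the kidney, and a small set of genes marks them in bulk tissue. The genes described here are 10 such markers, chosen by symbol: Pecam1, Cdh5, Kdr, Flt1, Tek, Tie1, Emcn, Eng, Vwf and Plvap. Of these, 9 had at least 1 named probe set on the arrays, out of 14217 named genes, and all 9 passed the filter on low signal that left 11415 genes. Cdh5 (VE-cadherin) was not analysed here. The 9 genes have 12 probe sets, 1 each except for 2 of Kdr and 3 of Flt1, and the probe set with the highest mean represented each gene. In the RefSeq annotation of GRCr8, whole genes lie at chr14:32572031-32615204 (Kdr), chr16:18218966-18231279 (Plvap), chr10:92090263-92152002 (Pecam1), chr3:36332190-36370324 (Eng), chr2:228564445-228644370 (Emcn), chr12:12333050-12504750 (Flt1), chr4:160042900-160177757 (Vwf), chr5:137285408-137305047 (Tie1) and chr5:114722815-114849535 (Tek).

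The study gave Sprague-Dawley Crl:CD(SD) rats, 7 to 8 weeks old at the start and of both sexes, a daily dose of 1 of 6 compounds or of saline. The compounds were the aminoglycosides gentamicin (Gentamycin in the labels) and tobramycin, the cytostatics cisplatin and doxorubicin, the metal cadmium, and valproic acid. RNA was measured after 1 or 5 days, and in untreated (naive) rats, 89 rats with 1 array each. The groups differ by compound and day, and each holds both sexes. Doses are not in the labels. Saline day 1 has 7 rats (4 females), saline day 5 has 5 (2 females), doxorubicin day 5 has 5 (3 females), and each of the other 12 groups has 3 females and 3 males. The RNA came from pieces of both kidneys of a rat, homogenised together, so fewer cells of a type and less RNA per cell cannot be told apart. Values are MAS5 signals (linear intensity) scaled to the same trimmed mean on every array, and differences are between means of log2(signal + 16). All 10 proximal tubule genes of a fixed list passed the filter on these kidney arrays, as did the 6 podocyte genes on the array.

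As background, the members belong to a few systems of the vessel wall. Kdr (VEGFR2) and Flt1 (VEGFR1) are receptors for vascular endothelial growth factors, made in the kidney largely by podocytes and tubules. Kdr is the main signalling receptor, and Flt1 binds the ligand tightly with weaker signalling. Tek (Tie2) is the receptor for the angiopoietins, of which Angpt1 stabilises vessels and Angpt2 can oppose it, and Tie1 is its partner without a well-defined ligand. Eng (endoglin) is a co-receptor for TGF-beta and BMP9 signals. Pecam1 is an adhesion molecule of cell junctions, also found on platelets and leukocytes. Emcn (endomucin) is a sialomucin of capillaries and veins, and Plvap forms the diaphragms of fenestrated capillaries such as those around the tubules. Vwf, the clotting factor that carries factor VIII and tethers platelets, is stored in endothelial granules, is also made by megakaryocytes, and is usually richest in larger veins.

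Eng, Plvap and Tie1 are the 3 members that varied most closely together from rat to rat, as described further on, so the sequence before their start sites is shown. Each is the 250 bases before the annotated start in the RefSeq table of GRCr8, written 5′ to 3′ on the gene's strand. The Eng and Tie1 windows reach into the annotated gene span, because the start used in the table is not the outermost one, while the Plvap window ends at the gene's edge. Capitals mark GGAA, the core that ETS family factors bind, and TTCC, which is GGAA on the other strand.
Eng (chr3:36332029-36332278, plus strand): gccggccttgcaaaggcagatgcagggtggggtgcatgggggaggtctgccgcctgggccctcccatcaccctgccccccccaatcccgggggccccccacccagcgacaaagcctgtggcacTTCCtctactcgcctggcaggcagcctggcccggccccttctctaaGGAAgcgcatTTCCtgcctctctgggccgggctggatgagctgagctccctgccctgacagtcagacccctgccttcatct
Plvap (chr16:18231280-18231529, minus strand): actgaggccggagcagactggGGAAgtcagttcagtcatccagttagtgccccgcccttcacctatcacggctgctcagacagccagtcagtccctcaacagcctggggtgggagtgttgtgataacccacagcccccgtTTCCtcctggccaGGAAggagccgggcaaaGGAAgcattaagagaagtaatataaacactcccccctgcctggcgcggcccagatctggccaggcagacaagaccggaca
Tie1 (chr5:137304982-137305231, minus strand): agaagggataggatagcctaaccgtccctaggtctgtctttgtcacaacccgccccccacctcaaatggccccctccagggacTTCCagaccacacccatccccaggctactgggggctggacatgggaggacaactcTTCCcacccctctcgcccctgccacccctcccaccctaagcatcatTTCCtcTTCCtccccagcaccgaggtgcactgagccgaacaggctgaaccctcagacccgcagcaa

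The Eng window held 3 such matches (1 GGAA and 2 TTCC), the Plvap window 4 (3 and 1) and the Tie1 window 4, all TTCC. The motif is short: 93.2% of the 33469 promoter windows in the table hold at least 1 match on either strand, 55.5% hold 3 or more, and the median is 3. The matches therefore describe these letters and do not set the members apart. Kdr (4 matches), Flt1 (3) and Emcn (6) also had an entry, while Pecam1, Tek, Vwf and Cdh5 are named only.

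The members were first compared between the sexes. In the 18 control rats (naive and saline), 5 of 9 members were higher in females and none was lower by limma with Benjamini-Hochberg adjustment: Vwf, Pecam1, Tek, Tie1 and Emcn. The sexes differ widely in this tissue, since 23.6% of all genes tested were called, 13.8% higher in females. The median difference of the 9 members was 0.17 on the log2 scale, against 0.055 over all genes. Kdr, Plvap, Eng and Flt1 did not pass.

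Vwf, the stored clotting factor, had the largest of these differences. Among the control rats Vwf ranged from 401 to 1026 (median 662) in the 9 females and from 143 to 491 (median 271) in the 9 males. The mean signal was 731 ± 218 (SD, n = 9) in females against 275 ± 97.5 (SD, n = 9) in males, a log2 difference of 1.37 (SE 0.21, limma adjusted p = 0.000104), or 2.58-fold. All but 1 female lay over the highest male, rat 1M4 of saline day 5, and the treatment text of that array is absent. Without 1 control rat at a time the Vwf difference stayed between 1.27 and 1.48 and was called in 18 of 18 fits.

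The same order appeared inside every group, by group mean. In naive rats Vwf measured 401, 597 and 1001 in females and 284, 303 and 311 in males. At saline day 1 it measured 532, 629.5, 809.6 and 1026 in females and 213, 258 and 271 in males, and at saline day 5 662 and 916 in females and 143, 199 and 491 in males. No male reached a female of its own group in these 3 control groups. Gentamicin rats had Vwf signals of 505, 680.0 and 1081 in females and 202, 233 and 244 in males at day 1, and 515, 573 and 579.5 in females and 176, 188 and 285 in males at day 5. For tobramycin the signals were 558, 568.5 and 936 in females and 221, 247 and 311 in males at day 1, and 461, 763 and 1026 in females and 261, 303 and 455 in males at day 5. The aminoglycoside groups too showed no overlap between the sexes. After cisplatin the values were 441, 496 and 775 in females and 200.2, 274 and 317 in males at day 1, and 336, 526.4 and 588 in females and 232, 329.7 and 353 in males at day 5. The cisplatin day 5 group was the only one of 15 in which the sexes overlapped, through 1 female at 336. Cadmium rats had Vwf at 510.0, 635 and 1285 in females and 187, 332 and 419 in males at day 1, and 538, 609 and 717 in females and 248, 345 and 349 in males at day 5. In doxorubicin rats it measured 595, 756 and 1086 in females and 210.2, 257 and 320.4 in males at day 1, and 601, 626 and 1103 in females and 192 and 268 in males at day 5. Valproic acid groups gave 772, 784 and 1193 in females and 238, 302 and 341 in males at day 1, and 429, 750.5 and 1213 in females and 159.2, 246 and 299.5 in males at day 5. Females were thus higher on average in 15 of 15 groups, by 0.62 to 1.65 on the log2 scale (median 1.33). How often other genes separate the sexes within single groups this small was not computed, for this gene or those below.

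**Figure D1:**
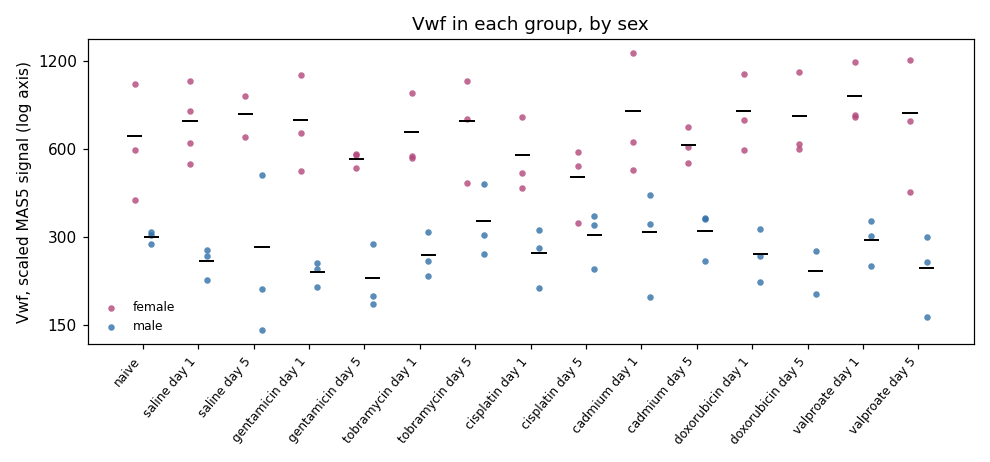
Scaled Vwf signal (log axis) of each of the 89 rats, by group along the x axis, with females left and males right in each group and short bars at the mean. The female mean is above the male mean in every group, and the sexes overlap only at cisplatin day 5.

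Pecam1, the junction adhesion molecule, came next. In controls Pecam1 ranged from 308 to 489 (median 376) in the 9 females and from 224 to 381 (median 266) in the 9 males. The mean signal was 395 ± 61.8 (SD, n = 9) in females against 284 ± 50.6 (SD, n = 9) in males, a log2 difference of 0.49 (SE 0.085, limma adjusted p = 0.000267). The ranges overlapped, with 4 of 9 females over the highest male. The sexes did not overlap in 12 of 15 groups taken one by one, with females higher on average in 15. The share of all genes with so many separated groups is unknown. Tek, the angiopoietin receptor, showed a tighter separation. Its signals ran as follows: Tek ranged from 668 to 1121 (median 752) in the 9 females and from 522 to 668 (median 608) in the 9 males. The mean signal was 800.3 ± 134 (SD, n = 9) in females against 591 ± 57.3 (SD, n = 9) in males, a log2 difference of 0.43 (SE 0.084, limma adjusted p = 0.000836). Of the 9 females, 8 lay over the highest male, and the sexes did not overlap in 12 of 15 groups. Pecam1 and Tek were each called in 18 of 18 fits that left out 1 control rat. Without scaling of the arrays neither passed (Pecam1 0.34, limma adjusted p = 0.513, and Tek 0.28, limma adjusted p = 0.659), and Vwf was the only member called in controls, where 6.43% of all genes were.

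Tie1 and Emcn passed more narrowly. For the orphan receptor, Tie1 ranged from 173 to 324 (median 219) in the 9 females and from 142.03 to 224 (median 175) in the 9 males. The mean signal was 227 ± 41.3 (SD, n = 9) in females against 180.8 ± 29.2 (SD, n = 9) in males, a log2 difference of 0.32 (SE 0.10, limma adjusted p = 0.0245). The 2 ranges overlapped, and 3 of 9 females lay over the highest male. Leaving out saline day 5 rat 1F106, a female with the highest Tie1 signal of the controls, gave 0.25 (limma adjusted p = 0.0597), and leaving out naive male 8M82 gave 0.29 (limma adjusted p = 0.0535). Emcn, the capillary sialomucin, had a small difference with little spread. Emcn ranged from 1050.0 to 1251 (median 1146) in the 9 females and from 864 to 1181 (median 1027) in the 9 males. The mean signal was 1144 ± 53.7 (SD, n = 9) in females against 1022 ± 92.7 (SD, n = 9) in males, a log2 difference of 0.17 (SE 0.058, limma adjusted p = 0.0327). It was called in 13 of the 18 fits that left out 1 control rat (limma adjusted p up to 0.0854). The rats whose removal ended the call were 1F102, 1F103, 1M2 and 1M3 of saline day 1 and 1M6 of saline day 5. Without the 5 arrays whose treatment text is absent or differs, Tie1 (0.34, limma adjusted p = 0.0556) and Emcn (0.14, limma adjusted p = 0.148) did not pass, and without scaling they were 0.18 (limma adjusted p = 0.844) and 0.023 (limma adjusted p = 0.991).

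The other 4 members had female minus male log2 differences near or above 0 in controls with intervals that include 0: Kdr 0.14 (95% interval -0.024 to 0.30), Plvap 0.15 (95% interval -0.052 to 0.34), Eng 0.16 (95% interval -0.064 to 0.38) and Flt1 0.015 (95% interval -0.22 to 0.25). Kdr ranged from 713 to 1025 (median 850.4) in the 9 females and from 583 to 965 (median 777) in the 9 males. Plvap ranged from 834 to 1442 (median 1219.9) in the 9 females and from 840.1 to 1274 (median 1107) in the 9 males. Neither gene separated the sexes over the control rats. Eng ranged from 319.5 to 588 (median 455) in the 9 females and from 305 to 562 (median 416) in the 9 males. Flt1 ranged from 62.0 to 106.4 (median 80.9) in the 9 females and from 57.9 to 102.5 (median 83.4) in the 9 males. The Flt1 ranges lay nearly on top of each other. Taken group by group, every female lay over every male in 8 of 15 groups for Emcn. This held in 3 groups each for Kdr, Tie1 and Plvap, and in 1 each for Flt1 and Eng. Plvap also had 1 group with every male over every female.

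The 71 treated rats (36 females and 35 males) were not used for that result, and the same contrast was computed in them after the control result was seen, with group as a term. By the probe set that represented each gene, 9 of 9 members were higher there in females (limma with Benjamini-Hochberg adjustment). Of all genes, 60.4% were called and 37.8% were higher in females, so a call is common at this number of rats. Without scaling, 3 of 9 passed (Vwf, Pecam1 and Tek), where 3493 of 11631 genes did. With quantile normalization Tie1 (0.12, limma adjusted p = 0.0638) and Flt1 (0.12, limma adjusted p = 0.0814) did not pass. The log2 differences were Vwf 1.297 (SE 0.095), Pecam1 0.40 (SE 0.043), Tek 0.35 (SE 0.040), Emcn 0.24 (SE 0.040), Plvap 0.21 (SE 0.061), Kdr 0.20 (SE 0.055), Eng 0.20 (SE 0.069), Flt1 0.18 (SE 0.064) and Tie1 0.16 (SE 0.054). Their median was 0.21, against 0.049 over all genes. For Vwf, the 36 treated females ranged from 336 to 1285 (median 618) and the 35 treated males from 159.2 to 455 (median 261). Of the treated females, 33 lay over the highest treated male for Vwf, 22 for Pecam1 and 16 for Tek. The sex difference in treated rats minus that in controls passed for 0 of 9 members and for 0% of all genes, with 4.33% at an unadjusted p under 0.05. For Vwf it was -0.072 (95% interval -0.51 to 0.37) and for Pecam1 -0.090 (95% interval -0.28 to 0.10).

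**Figure D2:**
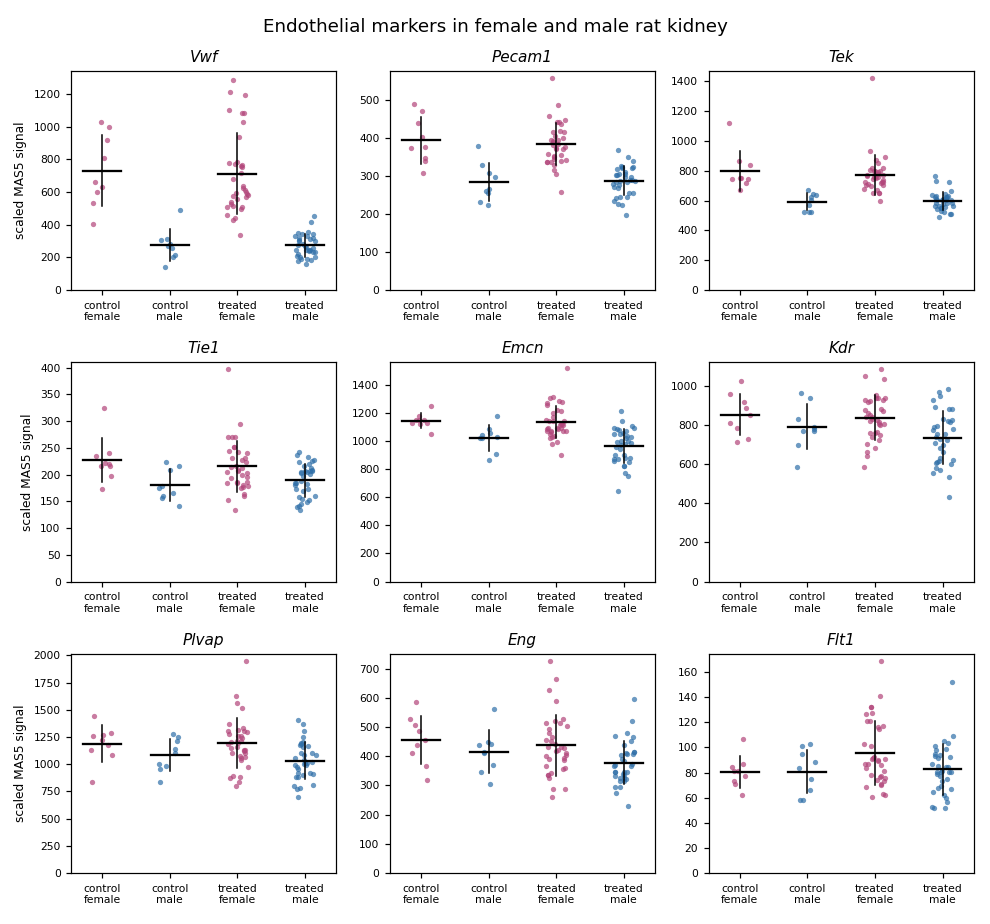
Scaled MAS5 signal of each rat for the 9 measured members, in control and treated rats of either sex (9, 9, 36 and 35 rats). Long bars are means and thin bars 1 SD. Vwf, Pecam1 and Tek show the clearest step between females and males in both sets, and Flt1 and Eng overlap widely.

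The probe sets of Flt1 disagreed. The probe set used was over the low-signal limit of 33.2 on all 89 arrays and gave 0.18 for females minus males in treated rats. The other Flt1 probe sets gave -0.26 (over the limit on 77 arrays) and -0.18 (over it on 32 arrays). Tested on their own, the first was called lower in females (limma adjusted p = 0.0195) and the second was not (limma adjusted p = 0.0706). The direction for Flt1 thus depends on the probe set, and with the mean of the 3 it was -0.089 and did not pass (limma adjusted p = 0.253). The second Kdr probe set was over the limit on 0 arrays.

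Other genes of the endothelium were also compared between the sexes. Of all genes tested in controls, 13.8% were higher in females and 9.82% lower. Of 30 further endothelial genes fixed as a list, 27 were tested in controls, and 13 were higher in females and 0 lower (median 0.24): Ramp2 (0.56), Cldn5 (0.54), Mcam (0.53), Jam2 (0.52), Rasip1 (0.46), Mmrn2 (0.43), S1pr1 (0.40), Esam (0.38), Nos3 (0.31), Ptprb (0.30), Arhgef15 (0.26), Thbd (0.26) and Tspan7 (0.24), given as log2 differences of females minus males. Ramp2 is a subunit of the adrenomedullin receptor, Cldn5 and Jam2 are junction proteins, and Ptprb is the phosphatase that acts on Tek. Jam2 measured 431 ± 36.7 in females and 294 ± 41.3 in males (SD, n = 9 each). Nos3, the endothelial nitric oxide synthase, was dim, with a female mean of 30.3, under the limit of 33.2. The summed signal of the 27 genes ran from 6979 to 7917 in control females and from 5639.8 to 6739.6 in control males, with no overlap. Among single genes tested, 1.82% had every control female over every control male. These lists were chosen with results of these data known.

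Within the VEGF, angiopoietin and TGF-beta/BMP list, 20 of 23 genes were tested, and 2 were higher in control females and 1 lower. Neither count is above the share of all genes (13.8% higher and 9.82% lower). Angpt2, the Tek ligand that can oppose Angpt1, ranged from 455 to 1262 (median 709) in females and from 114.3 to 202 (median 153) in males. No control male reached a control female, as held for 1.82% of all genes. The log2 difference was 2.05 (SE 0.16, limma adjusted p = 1.49e-08), and females were over males without overlap in 15 of 15 groups. How often other genes do so group by group was not computed. Vegfc, a ligand of lymphatic and blood vessel receptors, was higher (0.28, SE 0.083, limma adjusted p = 0.0175), and Vhl, which targets hypoxia-inducible factors for degradation, was lower (-0.24, SE 0.054, limma adjusted p = 0.00282). Vegfa, the main ligand of Kdr and Flt1, differed by -0.043 and did not pass (limma adjusted p = 0.646). In treated rats 8 of the 20 genes of this list were higher in females and 1 lower. Of all genes, 37.8% were higher there and 22.6% lower, so the higher count is near the common share.

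Among 24 Notch genes and endothelial transcription factors, 6 were higher in control females and 1 lower, with log2 differences of females minus males in parentheses. Those higher were Klf2 (0.62), Gata2 (0.37), Notch1 (0.29), Elk3 (0.29), Ets2 (0.28) and Ets1 (0.26), of which Klf2 is the factor induced by laminar flow and Ets1, Ets2 and Elk3 are ETS family members. Jag1, a Notch ligand, was lower (-0.44). Of 11 genes of activated endothelium tested, Plat, the tissue plasminogen activator, was higher (0.23) and F3, tissue factor, lower (-1.04). Lymphatic genes were called higher in 2 of 4, Ccl21 (0.69) and Pdpn (0.35), the latter also a podocyte protein. The counts of these short lists stand beside 13.8% of all genes higher in control females and 9.82% lower.

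Some marker lists of other cells held called genes in controls, to be read against the 13.8% of all genes that were higher in females and the 9.82% that were lower. Adipocyte genes were higher in females in 4 of 4, by log2 differences of 1.83 for Cfd, 1.45 for Plin1, 1.297 for Fabp4 and 1.01 for Adipoq, with a summed signal of 353 to 2809 in females and 178 to 1324 in males. Fibroblast and matrix genes were higher in 3 of 8 (Dcn, Lum and Fn1), with sums of 4807 to 6616 and 2554 to 5268. Both pairs of ranges overlap. Collecting duct genes were higher in 4 of 8 (Slc4a1, Avpr2, Slc26a4 and Aqp2), podocyte genes in 1 of 6 (Ptpro), pericyte and smooth muscle genes in 1 of 11 (Des), and macrophage and granulocyte genes in 1 of 11 (Cd14), the last 3 near or below the share of all genes. Proximal tubule genes were lower in females in 4 of 10 (Slc22a6, Slc13a3, Aqp1 and Fbp1) and higher in 1 (Cubn). Platelet genes bear on Vwf and Pecam1, which platelets or megakaryocytes also carry: 1 of 4 was higher, Itga2b (0.37), while Pf4 (-0.15) and Treml1 (-0.16) did not pass, with sums of 360.0 to 586 in females and 313 to 414 in males. The part of these cells in the members' difference was not tested.

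A measure of RNA quality was also compared between the sexes. The log2 ratio of the 3′ to the 5′ GAPDH control probe sets, which rises with RNA degradation, was 0.51 ± 0.42 (SD, n = 9) in control females and 0.37 ± 0.12 (SD, n = 9) in control males. That difference rests on 1 array, 1F106: without it the control females had 0.38 ± 0.12 (SD, n = 8). In treated rats the ratio was 0.48 ± 0.28 (SD, n = 36) in females and 0.36 ± 0.11 (SD, n = 35) in males, and the females had 0.41 ± 0.15 (SD, n = 33) without the arrays over 1. The 4 arrays with a ratio over 1 were all from females: 1F106 (saline day 5), 5F140 (cadmium day 5), 7F155 (valproic acid day 1) and 7F160 (valproic acid day 5). With the ratio as a covariate, added after the data were seen, Vwf, Pecam1, Tek and Emcn were still called in controls and Tie1 was not (0.25, limma adjusted p = 0.0578). In treated rats the covariate left 8 of 9 members called, and Eng went from 0.20 to 0.11 (limma adjusted p = 0.101). The share of all genes called with the covariate is not given here. Without it, 23.6% of all genes were called in controls and 60.4% in treated rats.

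**Figure D3:**
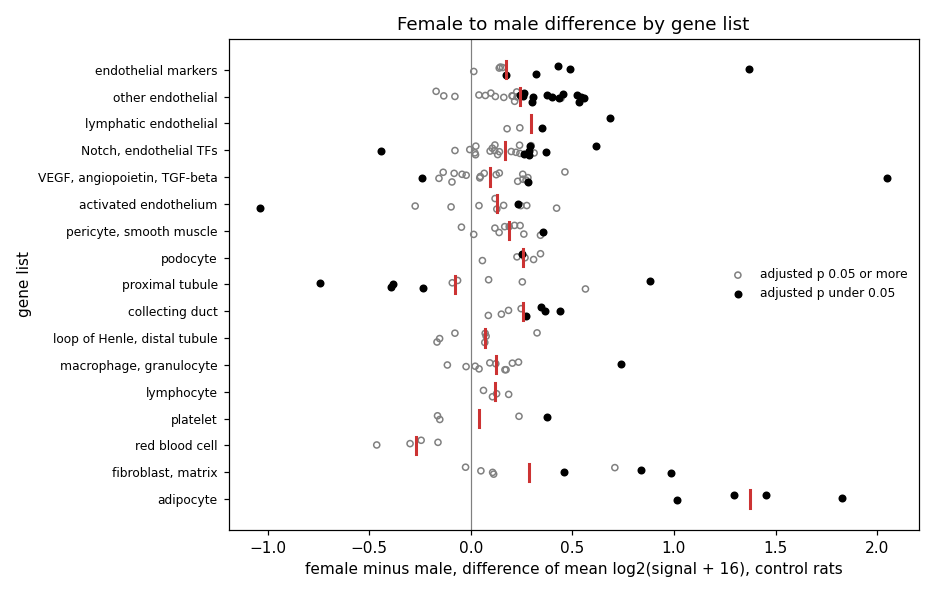
Female minus male difference of mean log2(signal + 16) in the 18 control rats for each tested gene of the 9 markers and 16 lists, filled where the limma adjusted p is under 0.05, with a red bar at the list median. The endothelial markers and the other endothelial genes lie mostly right of 0. Angpt2 (2.05) is farthest out, followed by the adipocyte genes Cfd (1.83) and Plin1 (1.45) and then Vwf (1.37).

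The treatments were compared with saline rats of the same day, the question being which genes each compound moved. No member was called in any of the 12 comparisons (0 of 9 each, limma with Benjamini-Hochberg adjustment), nor with the fit on all 89 arrays. Few genes of any kind were called: at day 1, 0.0788% of all genes for valproic acid (0.035% lower), 0.0613% for tobramycin, 0.0438% for doxorubicin and 0.0263% for cadmium, then at day 5, 0.114% for doxorubicin and 0.00876% for cisplatin, and 0% in the other 6. At an unadjusted p under 0.05, the members counted 1 of 9 at day 1 for gentamicin (Tek, where 4.61% of all genes passed) and for cisplatin (Kdr, 5.61%). They counted 0 at day 1 for tobramycin (7.4% of all genes), cadmium (5.79%), doxorubicin (9.62%) and valproic acid (9.19%). At day 5 they counted 2 for gentamicin (Pecam1 and Emcn, 6.25%), 0 for tobramycin (4.98%), 2 for cisplatin (Pecam1 and Eng, 8.06%) and 1 for cadmium (Flt1, 3.5%). The day 5 counts were 4 for doxorubicin (Eng, Kdr, Pecam1 and Emcn, 8.47%) and 3 for valproic acid (Eng, Kdr and Pecam1, 6.62%), shares of members above those of all genes, in comparisons that share their saline rats.

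A single test over all 15 groups (limma F-test, sex as a term, 89 arrays) also passed for 0 of 9 members, where 4.46% of all genes passed. The smallest adjusted p was 0.131 for Pecam1, followed by 0.173 for Flt1, 0.248 for Tie1 and 0.541 for Kdr. At an unadjusted p under 0.05, 3 of 9 members and 17.4% of all genes passed.

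The levels of all 9 members are given by group, ordered by mean log2 value, as mean scaled signal ± SD (n = 6, with 7 for saline day 1 and 5 for saline day 5 and doxorubicin day 5). These means and their order are not adjusted for sex, and those 3 groups hold unequal numbers of females and males. For Pecam1 the highest groups were cadmium day 5 (393 ± 111.2), saline day 5 (383 ± 70.6), valproic acid day 1 (359 ± 54.6), tobramycin day 1 (347 ± 41.4) and doxorubicin day 1 (346 ± 62.0). Next came tobramycin day 5 (347 ± 94.3), cisplatin day 1 (338 ± 46.1), doxorubicin day 5 (335 ± 84.4), valproic acid day 5 (331 ± 70.8) and saline day 1 (328 ± 71.4). The lowest 5 groups were cisplatin day 5 (323 ± 60.3), gentamicin day 5 (319 ± 57.9), cadmium day 1 (318 ± 68.3), naive (317 ± 91.4) and gentamicin day 1 (288 ± 48.4). No step between neighbours in this order was larger than the smaller of their 2 SDs. Cadmium rats at day 5 and saline rats at day 5 lead the order, and both groups' ranges overlap with the rest.

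Flt1 was highest in cadmium day 5 (127 ± 31.1), cadmium day 1 (97.3 ± 18.9), tobramycin day 5 (94.2 ± 27.4), valproic acid day 1 (91.4 ± 24.8) and tobramycin day 1 (90.3 ± 27.0). It went on with gentamicin day 5 (87.2 ± 28.2), cisplatin day 5 (84.8 ± 19.6), saline day 5 (83.8 ± 16.3), valproic acid day 5 (82.8 ± 11.1) and doxorubicin day 1 (83.2 ± 18.0). The lowest Flt1 signals were in cisplatin day 1 (81.2 ± 11.6), naive (80.6 ± 14.3), saline day 1 (78.3 ± 15.7), doxorubicin day 5 (75.9 ± 16.6) and gentamicin day 1 (72.2 ± 6.33). Only the first step, from cadmium day 5 to cadmium day 1, exceeded the smaller SD of the 2 groups (0.32 on the log2 scale).

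For Tie1 the order began with cadmium day 5 (256 ± 73.3), cisplatin day 1 (224 ± 43.1), saline day 5 (221 ± 64.3), valproic acid day 1 (211 ± 39.5) and valproic acid day 5 (209 ± 25.4). The middle held cadmium day 1 (207 ± 21.8), doxorubicin day 1 (209 ± 43.7), cisplatin day 5 (202 ± 38.5), saline day 1 (199 ± 28.4) and naive (196 ± 36.8). At the low end stood tobramycin day 5 (193 ± 33.5), doxorubicin day 5 (189 ± 41.6), gentamicin day 1 (185 ± 25.6), tobramycin day 1 (177 ± 23.1) and gentamicin day 5 (173 ± 36.8). All 14 steps were within the smaller SD of the neighbours.

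The order for Kdr started with saline day 5 (906 ± 95.1), cisplatin day 1 (878 ± 143), cadmium day 5 (864 ± 146.6), naive (823 ± 109) and gentamicin day 5 (823 ± 143). The middle of the Kdr order held cisplatin day 5 (809.6 ± 132.03), tobramycin day 1 (794 ± 154), cadmium day 1 (771 ± 98.1), valproic acid day 1 (770.0 ± 94.4) and doxorubicin day 1 (774 ± 136). It ended with saline day 1 (760.5 ± 94.1), tobramycin day 5 (754 ± 145), gentamicin day 1 (747 ± 101.03), valproic acid day 5 (714 ± 96.0) and doxorubicin day 5 (732 ± 220.1). All 14 steps were again within the smaller SD, and doxorubicin day 5 had the widest spread.

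Tek means ran downwards from cadmium day 5 (778 ± 334), valproic acid day 5 (734 ± 120.6), doxorubicin day 1 (726 ± 85.4), saline day 5 (736 ± 252) and saline day 1 (704 ± 100.5). These were followed by tobramycin day 1 (699.5 ± 98.8), valproic acid day 1 (693 ± 99.3), cadmium day 1 (687 ± 116), cisplatin day 5 (676 ± 136.8) and doxorubicin day 5 (669 ± 131.4). The lowest Tek means belonged to naive (653 ± 81.2), cisplatin day 1 (652 ± 96.1), gentamicin day 5 (653 ± 105.6), tobramycin day 5 (648 ± 101.02) and gentamicin day 1 (628 ± 50.3). The large SD of cadmium day 5 shows how far its 6 rats lay apart.

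The Emcn means, from the top, were doxorubicin day 1 (1114 ± 72.9), saline day 5 (1102 ± 68.0), naive (1097 ± 52.5), cadmium day 1 (1093 ± 147.5) and cisplatin day 5 (1102 ± 239). Below them lay valproic acid day 1 (1089 ± 172), cisplatin day 1 (1064 ± 100.4), cadmium day 5 (1062 ± 141.03), saline day 1 (1058 ± 140.9) and tobramycin day 1 (1042 ± 69.9). The order closed with valproic acid day 5 (1043 ± 173), tobramycin day 5 (1018 ± 211), gentamicin day 1 (1001 ± 97.8), gentamicin day 5 (992 ± 122.6) and doxorubicin day 5 (986 ± 184). The doxorubicin groups of day 1 and day 5 hold the ends of this order.

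Eng was highest in saline day 5 (488 ± 94.4), tobramycin day 1 (457 ± 117), cisplatin day 1 (447 ± 67.5), naive (424 ± 63.5) and valproic acid day 1 (424 ± 102.5). In the middle were cadmium day 5 (431 ± 166), tobramycin day 5 (417 ± 111.7), doxorubicin day 1 (414 ± 109.8), cisplatin day 5 (408 ± 71.3) and saline day 1 (407 ± 70.1). Eng was lowest in gentamicin day 5 (399 ± 84.1), cadmium day 1 (394 ± 84.9), gentamicin day 1 (383 ± 51.8), valproic acid day 5 (374 ± 56.9) and doxorubicin day 5 (340.1 ± 82.4). Saline and doxorubicin of day 5 hold the ends.

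For Plvap the upper groups were doxorubicin day 1 (1228 ± 224), cadmium day 1 (1186 ± 207), saline day 5 (1171 ± 127), naive (1169 ± 197) and valproic acid day 1 (1142 ± 157.6). The next 5 were cadmium day 5 (1172 ± 395), tobramycin day 5 (1152 ± 308), cisplatin day 5 (1124 ± 208), saline day 1 (1082 ± 165) and valproic acid day 5 (1078 ± 178). The bottom 5 were tobramycin day 1 (1060.4 ± 150.2), cisplatin day 1 (1066 ± 205), gentamicin day 5 (1055 ± 126), gentamicin day 1 (1058 ± 195) and doxorubicin day 5 (1044 ± 249). The doxorubicin groups again hold the ends.

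Vwf, with both sexes in each mean, was highest in valproic acid day 1 (605 ± 375), tobramycin day 5 (545 ± 294), cadmium day 1 (561 ± 386), doxorubicin day 5 (558 ± 361) and saline day 1 (534 ± 309.8). Intermediate Vwf means were those of doxorubicin day 1 (538 ± 342), cadmium day 5 (468 ± 181.4), naive (483 ± 279), tobramycin day 1 (474 ± 273) and valproic acid day 5 (516 ± 399). The lowest were gentamicin day 1 (491 ± 345), saline day 5 (482 ± 322), cisplatin day 1 (417 ± 206), cisplatin day 5 (394 ± 135) and gentamicin day 5 (386 ± 191). The pooled SD of its log2 values was 0.83 within groups and 0.43 within groups and sexes. The order of the Vwf means therefore also reflects how many females a group holds. Doxorubicin day 5 (3 females, 2 males) stands above saline day 5 (2 females, 3 males) in this order. With sex as a term, the log2 difference of doxorubicin day 5 minus saline day 5 was -0.077 for Vwf. For Tek, Emcn, Eng, Plvap and Vwf, 0 of 14 neighbouring steps exceeded the smaller SD.

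Flt1, the high-affinity VEGF receptor, was highest in the cadmium rats of day 5 by the probe set used. Cadmium rats at day 5 measured 84.3, 104.8, 117, 132.3, 152 and 169, and saline rats at day 5 66.0, 75.1, 77.2, 94.4 and 106.4. The 2 groups overlapped, and 6 of 6 cadmium rats lay over the mean of the saline rats of their sex. The log2 difference was 0.48 (SE 0.16, 95% interval 0.14 to 0.81, limma adjusted p = 1.00), which did not pass. Among the settings tried it passed only where all 18 naive and saline rats served as controls (0.55, limma adjusted p = 0.0301). That was 1 call among 1791 tests of a member under other settings, over all treatment comparisons. The share of all genes called with those controls is not given here. The other Flt1 probe sets gave 0.080 and -0.031 for cadmium day 5 against saline day 5. Kdr, the other VEGF receptor, differed by -0.10 there, and Vegfa was not called.

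Doxorubicin at day 5 had the lowest member values relative to saline: 9 of 9 members were lower, with a median log2 difference of -0.25, against 0.00015 over all genes, of which 5702 of 11415 were lower. None passed. Eng, the TGF-beta co-receptor, measured 231, 288, 366, 373 and 443 in the 5 doxorubicin rats and 370.3, 411, 508, 562 and 588 in the 5 saline rats. Kdr measured 434, 569.9, 841, 861 and 956 against 792, 832, 918, 965 and 1025, with the lowest 2 values from males. Pecam1 measured 244, 268, 318, 406 and 437 against 309.6, 330.4, 381, 404 and 489. The groups overlapped for each of the 3 genes. The differences were Eng -0.57 (SE 0.16, limma adjusted p = 0.306), Kdr -0.45 (SE 0.14, limma adjusted p = 0.338), Pecam1 -0.30 (SE 0.12, limma adjusted p = 0.496) and Emcn -0.23 (SE 0.10, limma adjusted p = 0.588).

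Genes of some other cells were also lower in the same comparison, but not those of every list. Red blood cell genes fell, with log2 differences of -5.88 for Hbb, -3.44 for Hba-a3 and -2.74 for Alas2, the only listed genes called in a comparison of treated with saline rats, and the summed signal of 4 such genes was 194 to 252 in doxorubicin rats against 5022 to 6773 in saline rats. Macrophage and granulocyte genes were lower in 10 of 11 with none called (sums 1814 to 3207 against 3031 to 3748), and fibroblast and matrix genes in 8 of 8 with none called (sums 2282 to 5592 against 3834 to 6244). The other endothelial genes were lower in 18 of 27 (median -0.084). Mean summed signals in doxorubicin against saline rats were 1977 against 2363 for activated endothelium and 3334 against 3410 for podocyte genes. For collecting duct genes the mean sum was higher (7952 against 7024), and for pericyte and smooth muscle genes it was 1075 against 1068. The part of these cells in the members' values was not tested.

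No member passed in the other comparisons with saline either. At day 1, gentamicin had 9 of 9 members lower (median -0.070). Tobramycin (median 0.014), cadmium (0.062) and cisplatin (0.047) each had 3 lower, valproic acid 1 (0.089) and doxorubicin 0 (0.074). At day 5, gentamicin had 9 of 9 lower (median -0.18), tobramycin 7 (-0.19), cisplatin 9 (-0.15), cadmium 6 (-0.042) and valproic acid 9 (-0.11). Over all genes the share that was lower lay between 44.7% and 53.5%. The 6 comparisons of day 5 share the same 5 saline rats, so their common direction is not 6 separate results.

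Those saline rats themselves had higher member values than the other controls. Relative to naive rats, 8 of 9 members were higher at saline day 5 (median 0.15), and relative to saline day 1, 9 of 9 were (median 0.14), with 0 called in either, 0% of all genes called, and 5.91% and 4.51% of all genes at an unadjusted p under 0.05. Pecam1 measured 309.6, 330.4, 381, 404 and 489 at saline day 5 and 224, 231, 255, 373, 376 and 440.4 in naive rats, a log2 difference of 0.35 (SE 0.10, limma adjusted p = 0.780). The 2 groups overlapped, with the naive males lowest. In saline day 5, 1F106 had the highest GAPDH ratio of all arrays and the treatment text of 1M4 is absent. Without 1F106 the median against naive rats was 0.081, and without 1M4 it was 0.12. Saline day 1 differed from naive rats by a median of -0.035.

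Set against naive rats in place of saline, the same treated groups gave medians nearer 0 at day 5 for 5 of 6 compounds, cadmium being the exception. The medians were -0.098 for gentamicin, -0.022 for tobramycin, -0.018 for cisplatin, 0.062 for cadmium, -0.10 for doxorubicin and -0.071 for valproic acid, with 7, 6, 5, 3, 8 and 5 of 9 members lower and 0 called in each. For doxorubicin the Eng difference became -0.35 and the Kdr difference -0.25. Pecam1, lower in all 6 compounds against saline, was 0.024 to 0.30 higher than naive in each of the 6, and no difference passed.

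**Figure D4:**
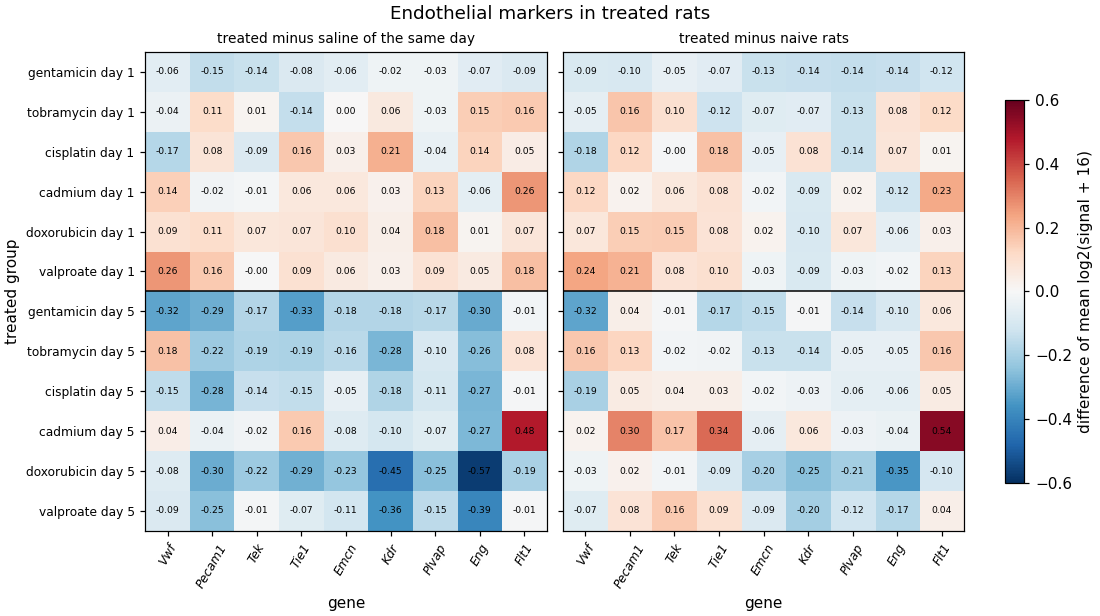
Differences of mean log2(signal + 16) of the 9 members in the 12 treated groups, against saline rats of the same day (left) and against naive rats (right), with the value printed in each cell. The day 5 groups of the left panel are mostly blue, with Eng at -0.57 for doxorubicin day 5, and are paler on the right, while Flt1 at cadmium day 5 is red in both.

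Gentamicin and tobramycin are aminoglycosides, related antibiotics that are taken up by the proximal tubule. It is unknown whether their doses match, so the values are given side by side. Between them 0 of 9 members was called at either day, where 0% of all genes was called and 7.24% (day 1) and 5.81% (day 5) had an unadjusted p under 0.05. Those of the members were, as log2 differences of gentamicin minus tobramycin, Pecam1 -0.26 (95% interval -0.49 to -0.037, limma adjusted p = 0.634) and Tek -0.15 (95% interval -0.28 to -0.0080, limma adjusted p = 0.665) at day 1 and Vwf -0.48 (95% interval -0.88 to -0.074, limma adjusted p = 0.844) at day 5. Vwf measured 176, 188, 285, 515, 573 and 579.5 in gentamicin rats and 261, 303, 455, 461, 763 and 1026 in tobramycin rats at day 5, and the groups overlapped. The other intervals included 0.

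The change from saline at day 5 was also compared with that at day 1, over 4 groups per compound. This contrast passed for 0 of 9 members in each of the 6 compounds. The medians were -0.15 for gentamicin, -0.17 for tobramycin, -0.081 for cisplatin, -0.10 for cadmium, -0.34 for doxorubicin and -0.24 for valproic acid. Only doxorubicin had any genes called in this contrast (0.0613% of all, none an endothelial gene of the lists). Members at an unadjusted p under 0.05 numbered 3 for cisplatin, 5 for doxorubicin and 3 for valproic acid and 0 for the others, against 8.12%, 5.94% and 5.25% of all genes in those 3 contrasts. All 6 contrasts share the 2 saline groups.

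Rats of the same group and sex still differed from one another, and the members other than Vwf shared part of that variation. Group and sex means were removed from the log2 values, and all 36 pairs of members were correlated over the 89 rats, with p-values from 100000 permutations within group and sex. The 28 pairs without Vwf were all positive, with r from 0.10 to 0.73 (median 0.31), and 16 of them had an adjusted p under 0.05 for Pearson's r. Each member's r with the mean of the other members ran from 0.22 (Flt1) to 0.65 (Tie1), and it was -0.095 for Vwf. Over all genes outside the set, the median r with the mean of the members was 0.028. A background for pairs of other genes is not given here. The points share the array and its scaling.

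The closest pair was Eng and Plvap, the co-receptor and the fenestral diaphragm protein, with r = 0.73 (rho = 0.68, permutation p = 1e-05 and 1e-05, adjusted 0.00018 and 0.00018). Here 1e-05 is the smallest p these permutations can give. Tie1 and Plvap had r = 0.62 (rho = 0.59, permutation p = 1e-05 and 1e-05, adjusted 0.00018 and 0.00018), and Tie1 and Eng had r = 0.51 (rho = 0.48, permutation p = 0.0002 and 0.00019, adjusted 0.00113 and 0.00171). Without the 2 rats farthest from the median on the x axis, r was 0.69, 0.58 and 0.48. These are the 3 genes whose promoter windows are printed. Kdr varied most closely with Emcn, with r = 0.48 (rho = 0.45, permutation p = 0.00022 and 0.00041, adjusted 0.00113 and 0.00211). With Plvap it had r = 0.14 (rho = 0.11, permutation p = 0.284 and 0.403, adjusted 0.365 and 0.454).

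Vwf stood apart from the others in this respect. Its 8 pairs ran from -0.38 to 0.20, 2 of them positive, and the only 1 with an adjusted p under 0.05 was negative, with Emcn, r = -0.38 (rho = -0.38, permutation p = 0.00244 and 0.00333, adjusted 0.00976 and 0.0133). Without the 2 farthest rats r was -0.36.

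The GAPDH ratio moved with this shared variation. Its correlation with the mean of the members was r = 0.46 (rho = 0.36, permutation p = 0.00159 and 0.00618, adjusted 0.0053 and 0.0206 over 10 relations, n = 89), and r = 0.30 without the 2 farthest rats. With the ratio removed as well, which was added with the data in view, 27 of the 28 pairs without Vwf stayed positive (median r 0.32, from -0.050 to 0.68), with 0.68 for Eng and Plvap, 0.57 for Tie1 and Plvap and 0.42 for Tie1 and Eng. The exception was Tek with Eng.

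**Figure D5:**
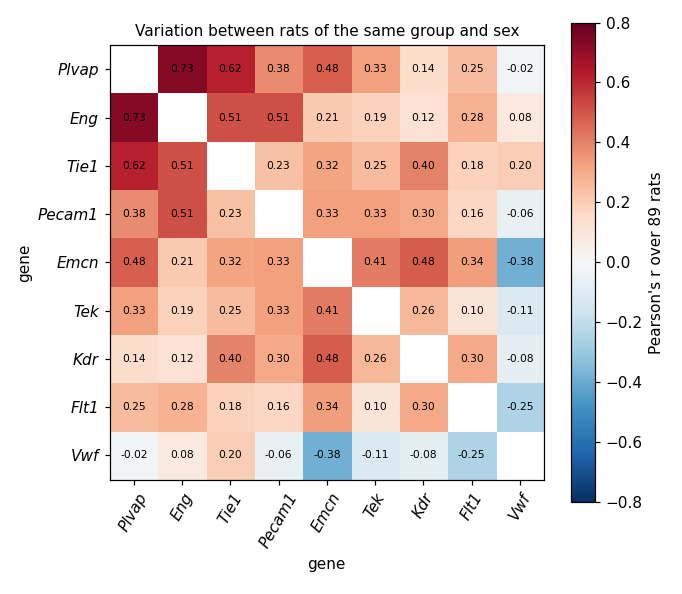
Pearson's r between members over 89 rats after group and sex means were removed, for all 36 pairs. Plvap, Eng and Tie1 form the darkest block (0.51 to 0.73), and the Vwf row and column run from -0.38 to 0.20.

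The genes outside the set whose variation was most like the mean of the members, over the same 89 rats, were Exoc3l2 (r = 0.80), Lamc3 (r = 0.72), Cygb (r = 0.72), Aebp1 (r = 0.72), Hspg2 (r = 0.70), Ifitm1 (r = 0.69), Tspan9 (r = 0.69) and Rab11fip5 (r = 0.69). They are the 8 highest of all genes tested, so their r is a description. Hspg2 is perlecan, a heparan sulfate proteoglycan of basement membranes, Lamc3 is a laminin chain, and Cygb is cytoglobin. The shared variation was not particular to endothelial genes. By list, the median r with that mean was 0.34 for proximal tubule genes (9 of 10 over 0) and 0.29 for fibroblast and matrix genes (6 of 8). It was 0.26 for macrophage and granulocyte genes (10 of 11) and 0.16 for the other endothelial genes (20 of 27). Podocyte genes had a median of -0.34.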

How the data were processed

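The RNA of 89 rat kidney samples was hybridised to arrays of 1 colour. The authors deposited a linear MAS5 signal intensity per probe set, per the submitters' processing notes. The sources used here do not give the MAS5 version or its scaling. Titles gave the groups. The text on treatment differs from the title for 1M2, 5F137 and 2F114 and is missing for 1M4 and 1F104, 5 arrays in all. Nothing in the labels names a batch.

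Each array was scaled to a 2% trimmed mean of 180.9 (91.5 to 352 before) and written as log2(signal + 16). Left out were 57 control probe sets, 436 with several symbols and 9780 with none. Genes with at least 5 arrays over the 40th percentile (33.2) were tested with limma 3.58.1 in R 4.3.3 (lmFit, then a robust eBayes with a trend), with sex as a term and Benjamini-Hochberg adjustment at 0.05, on the arrays of the groups compared. For females against males the term was group. Arrays carry no counts, so the number of rats limits the precision. The tests were tried on simulated data. Correlations used Python 3.11.15, and their p-values were added to a planned description.

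The members, lists and tests were chosen with earlier results of these data known. All members are named, as are listed genes that were called, and the 8 most similar genes. Some called genes of other cells are named without values. Promoter sequences come from RefSeq (GRCr8). Alternatives covered scaling, pseudocount, filter, probe sets, fit, controls, RNA quality and leaving out rats. Figures were drawn with matplotlib 3.10.9.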

Additional observations from a re-analysis of the deposited data

Results flagged for a closer look

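Within groups of 4 to 10 rats, 5 of 135 sets of values had 1 rat far from the others by Dixon's criterion at 95%, where chance gives about 1 in 20. Emcn in cisplatin day 1 was 869.7 in rat 3M21, and 1049 to 1143 in the other 5. Eng in doxorubicin day 1 was 628 in rat 6F146, with the others between 324 and 410.1. Eng among naive rats was 305 in rat 8M82, with the others between 409.9 and 487. Flt1 in valproic acid day 5 was 63.2 in rat 7F159, with the others between 81.3 and 93.7. Plvap in cadmium day 5 was 1952 in rat 5F140, with the others between 879.6 and 1181, and this array has a GAPDH log2 ratio of 1.45.

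In 5 of 108 sets of a member, a compound and a day, every female moved one way from the saline females of that day and every male the other way. The female minus male difference of the mean change was -0.42 on the log2 scale for Plvap at cisplatin day 1 (females -0.24, males 0.18), and -0.15 for Emcn at tobramycin day 1 (females -0.069, males 0.086). It was -0.39 for Flt1 at valproic acid day 5 (females -0.22, males 0.17), and -0.66 for Vwf at cadmium day 5 (females -0.33, males 0.33). For Tek at valproic acid day 5 it was -0.42 (females -0.25, males 0.18). These differences between the sexes were not tested, and the number of such sets that chance alone would give was not computed. Each rests on 3 treated rats a sex, set against 4 females and 3 males of saline day 1, or 2 females and 3 males of saline day 5. One of those 2 females is 1F106, with a GAPDH log2 ratio of 1.58. No compound moved a member one way in every rat at day 1 and the opposite way in every rat at day 5, over 54 pairs.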

How the results depend on the processing

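No member was called in a treatment comparison under any setting tried but 1: with naive and saline rats of both days as controls, 1 member (Flt1) was called for cadmium day 5. The share of all genes called with those controls is not given here. Leaving out 1 rat at a time, the counts were 0 to 0 in every comparison of treated, saline and naive groups, the day contrasts and the test over 15 groups, 4 to 5 for females against males in controls and 9 to 9 in treated rats. The deposited values without scaling carry the arrays' overall brightness, and with them the median of all genes ran from -0.31 (doxorubicin day 1) to 0.34 (gentamicin against tobramycin, day 1). They gave member medians of -0.31 for tobramycin, -0.14 for cisplatin, -0.061 for cadmium, -0.25 for doxorubicin and -0.11 for valproic acid at day 1, and -0.013 for gentamicin and 0.010 for cisplatin at day 5. They gave 0.26 for saline day 1 against naive, -0.19 for saline day 5 against day 1, and 0.31 and 0.20 for gentamicin against tobramycin at day 1 and day 5. For the effect at day 5 minus day 1 they gave 0.017 for tobramycin, 0.27 for cisplatin, -0.081 for doxorubicin and 0.054 for valproic acid. For the sexes they called 1 of 9 members in controls (Vwf, median 0.023, with all genes at -0.080 and 6.43% of them called) and 3 in treated rats (3493 of 11631 genes called), so calls fell over all genes. Without the 5 arrays of absent or differing text, 3 members were called in controls. The share of all genes called without those arrays is not given here. The female to male difference of Vwf was called in 12 of 12 other settings in controls (1.22 to 1.46), Pecam1 and Tek in 11, Emcn in 10 and Tie1 in 7. Flt1 in treated rats was -0.089 with the mean of its probe sets. No paired analysis was possible because no code is shared by rats of different groups and no rat has a second array. Signals near 33.2 limit Nos3 and the dimmer Flt1 probe sets.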
